A study of Mus musculus with 9 samples.

Results

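The 10 Kruppel-like factor transcripts examined here were *Klf2*, *Klf3*, *Klf4*, *Klf6*, *Klf9*, *Klf10*, *Klf11*, *Klf13*, *Klf15* and *Klf16*. They were taken by gene name from a deposited table of 43346 genes, all 10 were found, and all 10 passed the filter on low counts together with 15014 other genes. Bulk RNA-Seq had been performed on whole liver of male C57/BL6 mice (strain as labelled, C57BL/6J in the study's methods) aged 12 weeks that underwent 70% partial hepatectomy. Mice received vehicle (normal saline) or NSC87877 (NSC), an inhibitor of the tyrosine phosphatases SHP1 and SHP2, at 7.5 mg/kg per dose and 2 doses a day from before surgery until euthanasia. The 3 groups of 3 livers were resection specimens of vehicle-treated mice (baseline), vehicle-treated remnants at 40 hours and NSC-treated remnants at 40 hours. NSC-treated resection specimens were not analysed here, so the NSC remnants were compared with the baseline of vehicle-treated mice. The labels do not say whether a baseline and a remnant with the same number came from one mouse.

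Kruppel-like factors are DNA-binding proteins with a conserved zinc finger domain at their carboxyl end that reads GC boxes and CACCC boxes, the sequences that the related SP proteins also bind. Members differ in the part outside that domain, through which some recruit coactivators and others recruit the corepressors CtBP or SIN3A. In liver they are known for the hormonal and daily control of amino acid, glucose and lipid metabolism, for endothelial responses to blood flow and for responses to injury.

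The promoters of the 3 members whose transcripts changed are shown first. Of 6 motifs searched, the 3 share a GC box, a CCAAT box and the E-box CACGTG, the palindromic motif bound by the CLOCK-BMAL1, MYC and USF families. The E-box, the least common of those motifs among all promoters, was chosen for marking after the matches were seen. RefSeq (GRCm38.p6) gave a start site for 8 of the 10 members (all but *Klf10* and *Klf16*). The sequences are the 250 bases before that start, 5′ to 3′ on the sense strand, with each E-box in capitals. They lie at chr13:5861239-5861488 (*Klf6*), chr12:24651121-24651370 (*Klf11*) and chr6:90462326-90462575 (*Klf15*), all on the plus strand. In the deposited table *Klf6* spans chr13:5861489-5870393, *Klf11* chr12:24651371-24662774 and *Klf15* chr6:90462576-90475238, so the printed windows end where the genes begin.
Klf6: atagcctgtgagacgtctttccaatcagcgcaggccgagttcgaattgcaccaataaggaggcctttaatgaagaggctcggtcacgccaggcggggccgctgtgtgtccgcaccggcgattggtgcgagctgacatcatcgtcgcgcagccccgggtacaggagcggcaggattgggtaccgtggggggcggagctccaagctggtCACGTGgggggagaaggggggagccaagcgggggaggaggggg
Klf11: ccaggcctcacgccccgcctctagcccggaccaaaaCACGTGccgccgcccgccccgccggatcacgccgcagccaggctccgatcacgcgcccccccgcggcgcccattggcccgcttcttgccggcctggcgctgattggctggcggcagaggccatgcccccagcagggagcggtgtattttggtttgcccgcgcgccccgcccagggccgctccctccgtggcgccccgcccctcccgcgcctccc
Klf15: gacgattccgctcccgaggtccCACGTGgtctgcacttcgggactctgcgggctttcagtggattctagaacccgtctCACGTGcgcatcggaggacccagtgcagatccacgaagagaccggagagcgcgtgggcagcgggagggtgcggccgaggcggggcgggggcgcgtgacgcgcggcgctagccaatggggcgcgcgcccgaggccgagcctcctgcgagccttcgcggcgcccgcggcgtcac

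The first base of the E-box lay 43 bases before the start of *Klf6* and 214 bases before that of *Klf11*. *Klf15* held E-boxes at 228 and 172 bases. Among the 8 members with a promoter, 4 held at least 1 E-box, the fourth being *Klf4* (182 bases before the start), whereas 6.02% of all 32817 RefSeq promoters did so in windows of the same length. The members' promoters were GC-rich, and among the 9497 promoters with at least the lowest GC content of the 8 (59.6%) the share was 9.35%. The GC box GGGCGG, searched on both strands as were all motifs, was present in 7 of 8 members against 32.7% of promoters, CCAAT in 5 of 8 against 33.8%, CACCC in 5 of 8 against 52%, TATAA in 2 of 8 against 22.8%, and the cAMP response element TGACGTCA in 0 of 8 against 1.55%. No motif contains another, but matches of different motifs can overlap at their ends. A match describes letters in this window and not binding.

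Libraries held 31187349 to 33943842 assigned counts at baseline, 27956396 to 42887589 in vehicle remnants and 23997363 to 30201051 in NSC remnants, and each member had between 19 and 6772 counts in every library. Levels across livers are given as CPM, counts divided by library size and scaled by TMM factors, which adjust for differences in library composition. Baseline replicate 2 stood apart in clock gene transcripts, with the highest level of the 9 livers for 13 of 18 listed clock genes. *Dbp*, a clock output factor named here after its values were seen, was at 0.41, 81.0 and 1.29 CPM in baseline replicates 1, 2 and 3, and between 0.55 and 1.32 CPM in the 6 remnants. *Per3*, also named after its values were seen, was at 2.15, 66.6 and 3.56 CPM at baseline. The study's methods describe surgery timed to the day and night cycle, and the labels give no time of collection. The same liver had the highest level of 5 of the 10 Kruppel-like factors, against 13.4% of all tested genes, so several values are also given without it. NSC replicate 1 was the highest NSC liver for 8 of 10 members, against 37% of all tested genes. Vehicle replicate 3 was the lowest vehicle liver for 9 of 10 members, against 39.8% of all tested genes, and for 7 of 10 after correction for GC content. Hepatocyte markers were abundant throughout, with 9 transcripts summing to 103589 to 147418 CPM in every liver.

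On the length-scaled scale of the deposited FPKM, which allows comparison between genes, *Klf15* was the most abundant member at baseline at 71.7 ± 6.24 FPKM (mean ± SD, n = 3). *Klf9* followed at 21.7 ± 4.15 and *Klf3* at 12.4 ± 2.69, and the ranges of these 3 did not overlap. From *Klf3* downward, *Klf13* (7.19 ± 3.69), *Klf10* (5.003 ± 4.65), *Klf11* (2.92 ± 1.2), *Klf6* (2.18 ± 0.611), *Klf2* (1.49 ± 0.434) and *Klf16* (1.38 ± 0.376) each overlapped the member before, and *Klf4* was lowest, without overlap, at 0.385 ± 0.166 FPKM.

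*Klf15* made up 54.6% to 61.6% of the summed FPKM of the 10 members at baseline, 34.5% to 44.8% in vehicle remnants and 19.6% to 52.0% in NSC remnants. *Klf6* moved from seventh place at baseline to the fourth in both groups of remnants, at 7.55 ± 3.79 FPKM with vehicle and 6.33 ± 2.46 FPKM with NSC. In NSC remnants the ranges of *Klf15* (26.7 ± 10.3) and *Klf9* (17.7 ± 6.66) overlapped, because NSC replicate 1 had 15.7 FPKM of *Klf15* and 25.3 FPKM of *Klf9*.

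**Figure D1:**
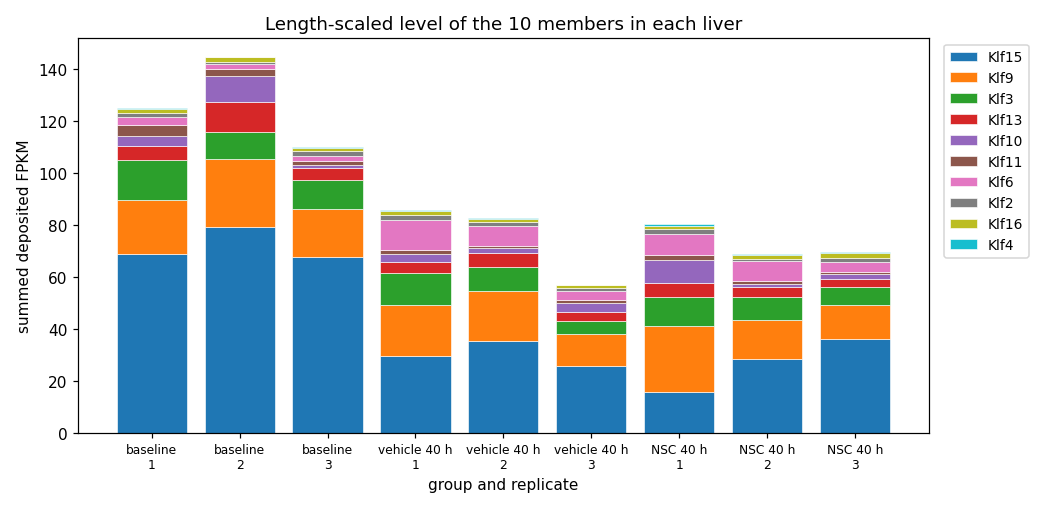
Stacked bars give the deposited FPKM of each of the 10 members in each of the 9 livers, ordered by baseline mean from the bottom. The summed level was 110 to 145 FPKM at baseline and 56.8 to 85.6 FPKM in the 6 remnants, and the *Klf15* segment was the largest in all livers except NSC replicate 1, where *Klf9* was larger.

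The first question was which members changed between the resected liver and the regenerating remnant. With vehicle, 3 of the 10 members were called at an adjusted p under 0.05 by edgeR's quasi-likelihood test, against 23.7% of all tested genes. *Klf6* rose, as did 12.7% of all genes, and *Klf11* and *Klf15* fell, as did 11% of all genes. With NSC the same 3 members were called in the same directions, against 34.7% of all genes (18.2% higher and 16.5% lower). These shares are near the background, so the counts do not set the family apart. Both comparisons use the same baseline livers. In bulk liver, fewer cells of a type and less RNA per cell cannot be told apart.

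The fold change was negative for 9 of 10 members with vehicle and for 8 of 10 with NSC. The median log2 fold change of the members was -0.44 and -0.46, respectively, and that of all tested genes was 0.01 in both comparisons. Leaving out baseline replicate 2 brought the medians of the members to -0.22 and -0.28, and those of all tested genes to 0.02 and 0.03. Among all calls, 53.7% were higher with vehicle and 52.4% with NSC, which became 40% and 41.7% after GC correction, and 65.4% with NSC when libraries were scaled by total counts only. The 3 baseline livers and the 3 remnants did not overlap for 3 members with vehicle and for 4 members with NSC, against 46.3% and 47.1% of all genes. When an absolute log2 fold change over 1.5 was also required, 1 member was called in each comparison: *Klf6* with vehicle (7.22% of all genes) and *Klf15* with NSC (8.13%).

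**Figure D2:**
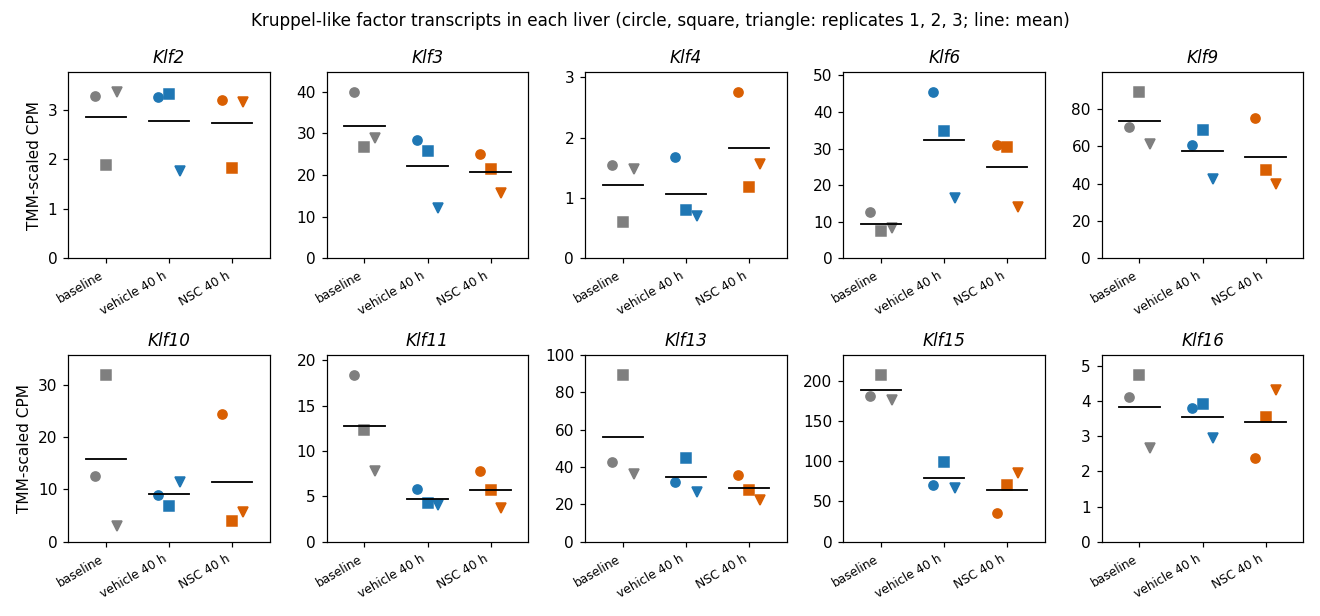
Points give the TMM-scaled CPM of each member in each of the 9 livers (linear axes from 0; circle, square and triangle are replicates 1, 2 and 3, and the line is the group mean). *Klf15* in all 6 remnants (36.0 to 99.3 CPM) sat below the 3 baseline livers (176 to 207 CPM), and *Klf6* in all 6 remnants (13.9 to 45.5 CPM) sat above baseline (7.54 to 12.6 CPM).

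*Klf15* encodes an activator that responds to glucocorticoids and fasting and drives transcription of enzymes of amino acid breakdown and gluconeogenesis. Its level was 181, 207 and 176 CPM in baseline replicates 1 to 3. It was 70.8, 99.3 and 66.4 CPM in vehicle remnants and 36.0, 70.0 and 85.8 CPM in NSC remnants. All 6 remnants lay below all 3 baseline livers, and the lowest was NSC replicate 1. *Klf15* fell 2.38-fold with vehicle (log2 fold change -1.25, SE 0.28, adjusted p = 0.00803) and 2.94-fold with NSC (-1.56, SE 0.28, adjusted p = 0.00186). It was called at an adjusted p under 0.05 under all 19 alternative fits in both comparisons, and passed the added limit of 1.5 on the log2 fold change with NSC but not with vehicle.

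Of 6 listed enzymes linked to KLF15, 5 fell with vehicle (11% of all tested genes did) and 6 with NSC (16.5%). Their median log2 fold change was -1.17 and -1.68. Without baseline replicate 2 the calls were 3 and 6, with medians of -1.05 and -1.39. *Tat*, which starts tyrosine breakdown, was at 4308, 3680 and 3137 CPM at baseline, at 1405, 2023 and 1261 CPM with vehicle and at 755, 931 and 1225 CPM with NSC. It fell with vehicle (log2 fold change -1.25, SE 0.24, adjusted p = 0.0036) and with NSC (-1.93, SE 0.25, adjusted p = 0.000225), and no remnant overlapped the baseline. With vehicle, *Tdo2*, which opens the tryptophan ring, had a log2 fold change of -1.68 (SE 0.22) and *Prodh*, which oxidizes proline, one of -1.60 (SE 0.33). With NSC, *Pck1*, the gluconeogenic carboxykinase, had one of -1.97 (SE 0.26) and *Bcat2*, a branched-chain aminotransferase, one of -1.10 (SE 0.17), whereas *Bcat2* with vehicle was at -0.29 (SE 0.17, adjusted p = 0.234) and did not pass the test.

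The transcript most like *Klf15* among the 15014 other tested genes was *Gpt*, the alanine aminotransferase that is also in that list. The root mean square difference of their centred log2 CPM over the 9 livers was 0.112, against a median of 0.854 over all tested genes. *Gpt* was at 265, 373 and 302 CPM at baseline, at 130, 187 and 125 CPM with vehicle and at 68.3, 121 and 162 CPM with NSC, so that NSC replicate 1 was the lowest liver for both. *Haao*, a dioxygenase of tryptophan breakdown, came next at 0.162. *Tat* ranked 35th (0.251), and *Prodh*, *Bcat2*, *Tdo2* and *Pck1* ranked 424th, 973rd, 1690th and 1805th. These genes share their libraries and liver of origin, so this likeness is a description.

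**Figure D3:**
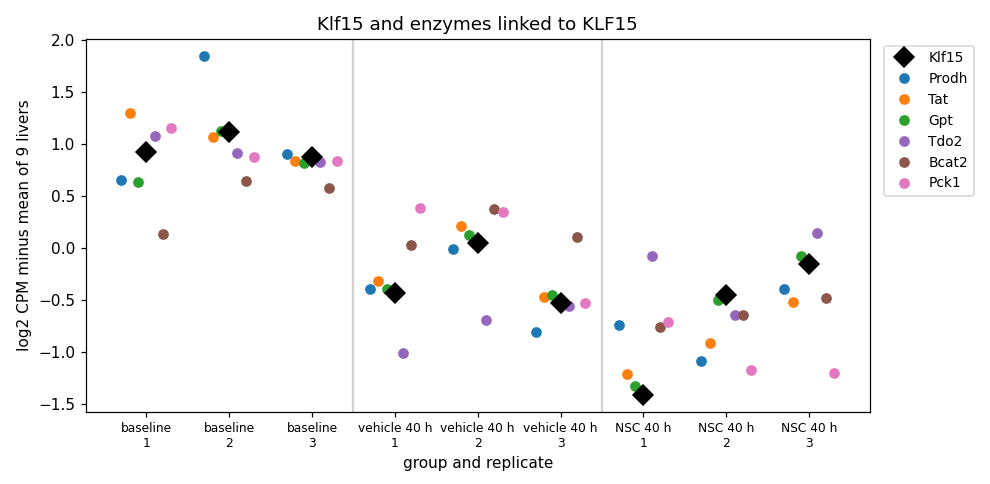
Each point is the log2 CPM of a gene minus its mean over the 9 livers, for *Klf15* (black diamonds) and the 6 listed enzymes (circles), by group and replicate. All 7 transcripts were above their mean in the 3 baseline livers, and *Gpt* followed *Klf15* most closely across the remnants, including NSC replicate 1.

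*Klf11* and *Klf10* belong to the subgroup induced early by TGF-β that recruits SIN3A, and KLF11 is known as a regulator of glucose and lipid metabolism. *Klf11* was at 18.4, 12.3 and 7.75 CPM at baseline, at 5.86, 4.30 and 4.10 CPM with vehicle and at 7.83, 5.67 and 3.72 CPM with NSC. All vehicle remnants lay below the baseline, but NSC replicate 1 was level with baseline replicate 3. *Klf11* fell 2.69-fold with vehicle (log2 fold change -1.43, SE 0.33, adjusted p = 0.0104) and 2.23-fold with NSC (-1.15, SE 0.33, adjusted p = 0.0196). The call with vehicle held under all 19 alternative fits and that with NSC under 16. Baseline replicate 1 was highest, and without it the values were -1.08 (adjusted p = 0.0497) and -0.81 (adjusted p = 0.089). The call with NSC was also lost without NSC replicate 2 (adjusted p = 0.0617) or NSC replicate 3 (0.0612).

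*Klf10* was at 12.6, 31.8 and 3.00 CPM at baseline, at 8.93, 6.82 and 11.4 CPM with vehicle and at 24.4, 3.91 and 5.67 CPM with NSC. Baseline replicate 2 and NSC replicate 1 were high, and the highest level was 10.6 times the lowest within the baseline group and 6.26 times within the NSC group, a ratio larger than that of 98.7% and 96.8% of all tested genes. Its log2 fold change was -0.81 (SE 0.94, adjusted p = 0.583) with vehicle and -0.47 (SE 0.93, adjusted p = 0.726) with NSC. Without baseline replicate 2, the liver with the high *Dbp*, the sign turned, to 0.21 and 0.55. *Klf10* is itself known as a clock-controlled gene, and 6 of 18 listed clock genes had a larger ratio at baseline, but 0 of 18 did within the NSC group. The part of the clock transcripts in the spread of *Klf10* was not tested.

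Of the 18 listed clock genes, 6 fell with vehicle, 7 fell with NSC and 0 rose in either comparison, with median log2 fold changes of -1.21 and -1.42. For this list and the next 2, the shares of all tested genes were 11% lower and 12.7% higher with vehicle, and 16.5% and 18.2% with NSC. Without baseline replicate 2, 17 clock genes passed the filter, 5 and 6 fell, 0 and 1 rose, and the medians were -0.69 and -0.60. *Cry2*, a repressor of the clock, had a log2 fold change of -1.62 (SE 0.24, adjusted p = 0.000869) with vehicle and -1.76 (SE 0.24, adjusted p = 0.000371) with NSC. Of 13 genes in the TGF-β list, 2 rose with NSC (*Tgfb2*, 1.72, SE 0.56, and *Tgfbr1*, 0.63, SE 0.18) and 0 fell, and without NSC replicate 1 none was called (0 rose and 0 fell). Of 8 genes in the glucocorticoid list, 2 were called lower with vehicle (*Tsc22d3*, -0.91, and *Nr3c1*, -0.42) and 1 with NSC (*Per1*, -2.24, SE 0.37). The list holds induced genes and the receptor gene *Nr3c1*. Without baseline replicate 2 this list turned with vehicle, to 2 higher and 0 lower, and with NSC 1 was higher and 1 lower.

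*Klf9*, *Klf13* and *Klf16* encode the other SIN3A-binding members. KLF9 is induced by glucocorticoid and thyroid hormone. *Klf9* was at 70.1, 89.1 and 61.4 CPM at baseline, at 60.9, 68.7 and 42.4 CPM with vehicle and at 74.9, 47.4 and 39.8 CPM with NSC. The groups overlapped, and the log2 fold changes of -0.36 (SE 0.25, adjusted p = 0.329) and -0.44 (SE 0.25, adjusted p = 0.193) did not pass the test. Without NSC replicate 1 the value with NSC was -0.75 and passed (adjusted p = 0.0181).

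*Klf13*, which encodes a factor known from cytokine expression in T lymphocytes, was at 42.9, 89.3 and 36.3 CPM at baseline, at 32.0, 45.1 and 26.6 CPM with vehicle and at 35.9, 27.7 and 22.3 CPM with NSC. Baseline replicate 2 was the highest liver, and all NSC remnants lay below the lowest baseline value, NSC replicate 1 by little. The log2 fold change was -0.70 (SE 0.35, adjusted p = 0.179) with vehicle and -0.97 (SE 0.35, adjusted p = 0.0583) with NSC. Without baseline replicate 2 these were -0.19 and -0.46, and without baseline replicate 3 the value with NSC passed the test (-1.20, adjusted p = 0.0286). DESeq2 (adjusted p = 0.0124) and edgeR's exact test (adjusted p = 0.0161) called the difference with NSC. Lymphocyte markers summed to 2.08 to 7.09 CPM at baseline, with the lowest sum in replicate 2, and to 0.554 to 1.98 CPM in the remnants. Annotated on the opposite strand within *Klf13* are *Gm27252* (45 to 187 counts per library) and *E030018B13Rik* (6 to 212 counts), and the strand setting of the counting is not given in the sources used here.

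*Klf16* stayed between 2.37 and 4.73 CPM in all 9 livers, and all 3 groups overlapped. Its log2 fold change was -0.11 (SE 0.29) with vehicle and -0.18 (SE 0.29) with NSC. Of 13 listed cofactors and regulators of these proteins, 1 rose and 2 fell with vehicle, and 3 rose and 2 fell with NSC. Among all tested genes, 12.7% rose and 11% fell with vehicle, and 18.2% rose and 16.5% fell with NSC. These counts do not set the list apart. *Sap30*, a subunit of the SIN3 corepressor complex, rose in both comparisons, by 1.30 (SE 0.29, adjusted p = 0.00777) and 2.04 (SE 0.29, adjusted p = 0.000446) on the log2 scale. *Kat2b*, a histone acetyltransferase, had a value of -0.65 (SE 0.14) with vehicle, *Hdac2*, a histone deacetylase, one of 0.78 (SE 0.17) with NSC, and the coactivator *Crebbp* one of -0.57 (SE 0.14) with NSC.

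*Klf6* encodes an activator induced on tissue injury, known from activated hepatic stellate cells and also present in hepatocytes and endothelium. It was at 12.6, 7.54 and 8.45 CPM at baseline, at 45.5, 34.9 and 16.5 CPM with vehicle and at 30.9, 30.4 and 13.9 CPM with NSC. All 6 remnants lay above the baseline, with replicate 3 the lowest in both groups of remnants. *Klf6* rose 3.39-fold with vehicle (log2 fold change 1.76, SE 0.43, adjusted p = 0.0187) and 2.63-fold with NSC (1.40, SE 0.43, adjusted p = 0.0336). The direction held under all 19 alternative fits, and the call under 15 with vehicle and 12 with NSC. With GC correction the value with NSC was 0.92 (adjusted p = 0.136), and the *Klf6* transcript has a GC content of 42.4%, higher than that of 14% of tested genes. The call with vehicle was lost without baseline replicate 2 (adjusted p = 0.0675), baseline replicate 3 (0.0728) or vehicle replicate 1 (0.0528). That with NSC was lost without baseline replicate 2 (0.107), baseline replicate 3 (0.11), vehicle replicate 2 (0.0502), NSC replicate 1 (0.115) or NSC replicate 2 (0.0904).

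Of 10 stellate cell markers, 6 rose with vehicle and 1 fell, with a summed level of 235 to 244 CPM at baseline and 216 to 322 CPM in the remnants. With NSC 2 rose and 2 fell, with 157 to 254 CPM, and their part in the rise of *Klf6* was not tested. Without baseline replicate 2, 4 stellate markers rose and 1 fell with vehicle, and 2 rose and 1 fell with NSC. Of all tested genes, 12.7% rose and 11% fell with vehicle, and 18.2% rose and 16.5% fell with NSC. The transcripts most like *Klf6* across the 9 livers were *Nid1*, a basement membrane protein, and *Sowahb*, with root mean square differences of 0.258 and 0.269 against a median of 0.944. *Nid1* was at 10.9 to 13.7 CPM at baseline, 33.4 to 69.4 CPM with vehicle and 26.1 to 52.9 CPM with NSC, and its replicate 3 was also the lowest in each group of remnants. KLF6, KLF4 and KLF10 are also known as immediate early genes. Of 16 tested genes in the immediate early list, 7 rose and 1 fell with vehicle, and 2 rose and 3 fell with NSC. Called lower with NSC than with vehicle was 1 (*Egr2*, log2 fold change -3.33, SE 0.44, adjusted p = 0.047), and 0 were higher, against 0.0399% of all tested genes called. The median of the list in that comparison was -1.79, against 0.02 for all tested genes. In the quasi-likelihood test 12 of the 16 had an unadjusted p under 0.05, as did 2929 of all 15024 tested genes. *Egr2* was lower under all 18 alternative fits that tested it (-3.52 to -3.20) but was called in 10 of them. Its adjusted p ran from 3.18e-14 with edgeR's exact test up to 0.21. Among the fits that lost it were GC correction (0.202), library size scaling (0.0558) and leaving out baseline replicate 1 (0.062). Leaving out vehicle replicate 1 (0.154) or 2 (0.178), or NSC replicate 2 (0.21) or 3 (0.154), lost it too. Without NSC replicate 1, 6 genes of that list were lower with NSC than with vehicle.

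*Klf2* and *Klf4* encode the endothelial members induced by laminar flow through the MEK5-ERK5 kinases. *Klf2* was at 3.29, 1.89 and 3.37 CPM at baseline, at 3.25, 3.32 and 1.77 CPM with vehicle and at 3.21, 1.83 and 3.17 CPM with NSC. In each group 2 livers were near the same level and 1 was lower, and the log2 fold changes of -0.03 (95% interval -0.76 to 0.71) and -0.06 (-0.80 to 0.68) were the smallest in the family. The sign is not informative, since library size scaling turned that with NSC (0.092) and GC correction turned both (0.040 and 0.46).

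*Klf4* was at 1.55, 0.611 and 1.48 CPM at baseline, at 1.68, 0.803 and 0.701 CPM with vehicle and at 2.76, 1.19 and 1.57 CPM with NSC. The groups overlapped, with NSC replicate 1 highest, and the log2 fold changes were -0.18 (SE 0.47) and 0.60 (SE 0.47, adjusted p = 0.337). Sinusoidal endothelial markers summed to 314 to 337 CPM at baseline, 218 to 311 CPM with vehicle and 215 to 373 CPM with NSC, and NSC replicate 1 was again the highest liver. In the 11-gene list of the MEK5-ERK5 pathway and its endothelial targets, *Thbd* (thrombomodulin) rose by 2.37 (SE 0.49, adjusted p = 0.00845) with vehicle and 2.64 (SE 0.50, adjusted p = 0.00362) with NSC on the log2 scale, whereas *Map2k5*, the MEK5 kinase, fell (-0.68, SE 0.16, and -0.60, SE 0.16). In all, 1 of 11 rose and 1 fell with vehicle, and 2 rose and 2 fell with NSC. The shares of all tested genes were 12.7% and 11% with vehicle, and 18.2% and 16.5% with NSC, so these counts do not set the list apart. With vehicle, 3 fell without baseline replicate 2 and 3 rose without NSC replicate 1.

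*Klf3* encodes a repressor that recruits CtBP. It was at 39.9, 26.7 and 28.9 CPM at baseline, at 28.3, 25.7 and 12.2 CPM with vehicle and at 25.0, 21.4 and 15.7 CPM with NSC. The NSC remnants lay below the baseline without overlap and the vehicle remnants overlapped it, and neither difference passed the test in the reported fit (log2 fold change -0.53, SE 0.30, adjusted p = 0.229, and -0.62, SE 0.30, adjusted p = 0.134). With GC correction the value with NSC was -0.93 and passed (adjusted p = 0.0452), as did the value without vehicle replicate 3 (-0.62, adjusted p = 0.0395), a library that enters only the shared estimate of spread. In all, *Klf3* was called under 4 of 19 alternative fits with NSC and 1 with vehicle.

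**Figure D4:**
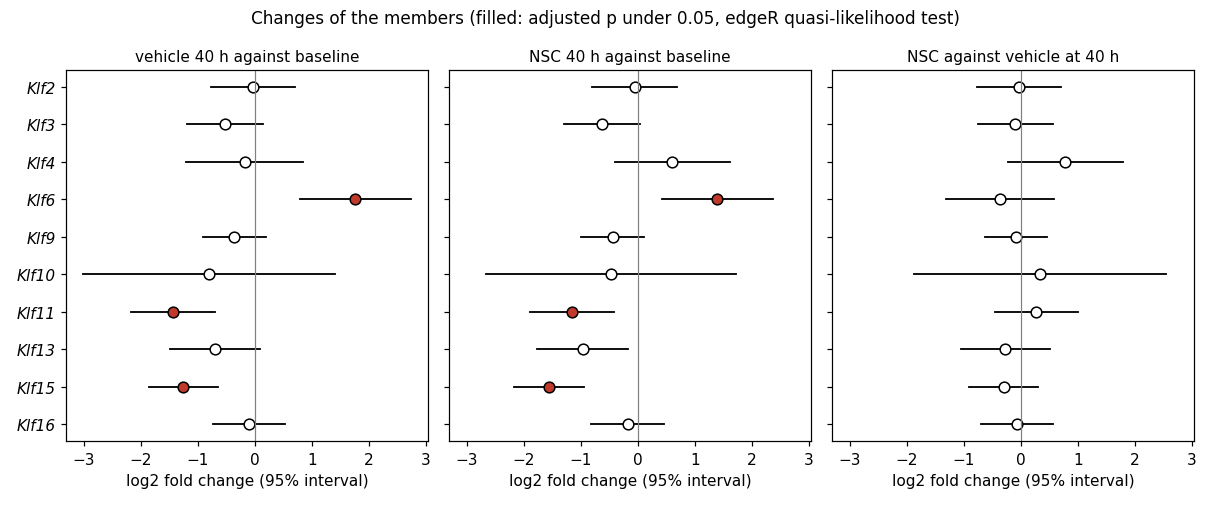
Points give the log2 fold change of each member with its 95% interval in the 3 comparisons, filled where the adjusted p was under 0.05. *Klf6* is filled to the right and *Klf11* and *Klf15* to the left in both comparisons with baseline, and no member is filled in the comparison of NSC with vehicle.

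The remaining question was whether NSC altered the members in the regenerating remnant. In the comparison of NSC with vehicle at 40 hours, 0 of 10 members were called by edgeR's quasi-likelihood test, against 0.0399% of all tested genes. None of the 10 had an unadjusted p under 0.05, and the count was also 0 with DESeq2 and with edgeR's exact test. The NSC and vehicle remnants overlapped for all 10 members, whereas they did not overlap for 22.5% of all genes. The largest difference was that of *Klf4*, at 0.78 (95% interval -0.23 to 1.80). For the members that changed after hepatectomy, the difference of NSC from vehicle was -0.30 for *Klf15* (-0.90 to 0.30), -0.37 for *Klf6* (-1.31 to 0.58) and 0.27 for *Klf11* (-0.46 to 1.006). The least certain member was *Klf10*, with an interval of -1.87 to 2.54. No difference between NSC and vehicle was detected for any member, and these intervals bound its size.

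Remnants of one treatment differed among themselves. Within NSC remnants *Klf15* ranged 2.38-fold, while its NSC mean was 1.23-fold below that with vehicle in the fit, and *Klf10* ranged 6.26-fold. Within vehicle remnants *Klf6* ranged 2.75-fold and *Klf3* 2.32-fold. NSC replicate 1 combined the lowest *Klf15* with the highest *Klf4*, *Klf9*, *Klf10*, *Klf11* and *Klf13* of its group, and with the highest summed macrophage markers (590 CPM, against 354 CPM in NSC replicate 2). Its sums of sinusoidal endothelial (373 CPM), stellate (254 CPM), neutrophil (23.2 CPM) and lymphocyte markers (1.98 CPM) were also the highest of its group. Its cholangiocyte sum was not, and its hepatocyte (108079 CPM) and erythroid (99.98 CPM) sums were the lowest. The part of these markers in the members' levels was not tested.

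Of the other Kruppel-like factor genes, 3 of 7 passed the filter (*Klf1*, *Klf7* and *Klf12*), and *Klf5*, *Klf8*, *Klf14* and *Klf17* did not. *Klf14* and *Klf17* had 0 counts in every library, which allows up to 0.117 CPM in the shallowest (3 counts, counting error only). *Klf1*, the erythroid member that drives globin transcription, had 31, 93 and 41 counts at baseline, 11, 23 and 7 counts with vehicle and 3, 13 and 2 counts with NSC. All remnants lay below the baseline, and *Klf1* fell by 2.17 (SE 0.60, adjusted p = 0.0216) with vehicle and by 3.06 (SE 0.66, adjusted p = 0.00427) with NSC on the log2 scale. Erythroid markers summed to 197 to 285 CPM at baseline, 85.4 to 144 CPM with vehicle and 99.98 to 192 CPM with NSC, with 1 of the 6 markers at 0 in all baseline and vehicle livers, and the part of these cells in the difference was not tested. Without baseline replicate 2, *Klf1* was not called with vehicle. *Klf7* and *Klf12* were not called in any comparison in the reported fit. Of 9 SP genes, 5 passed the filter (*Sp1* to *Sp5*, with *Sp6* to *Sp9* below it), 0 were called with vehicle and 2 rose with NSC. *Sp3* was at 36.5, 22.5 and 27.9 CPM at baseline and 51.8, 44.8 and 37.6 CPM with NSC (log2 fold change 0.63, SE 0.19, adjusted p = 0.0207), and *Sp5*, a low transcript, had a value of 2.08 (SE 0.62, adjusted p = 0.0221). Leaving out baseline replicate 2 or NSC replicate 1 left 1 SP gene called with NSC.

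**Figure D5:**
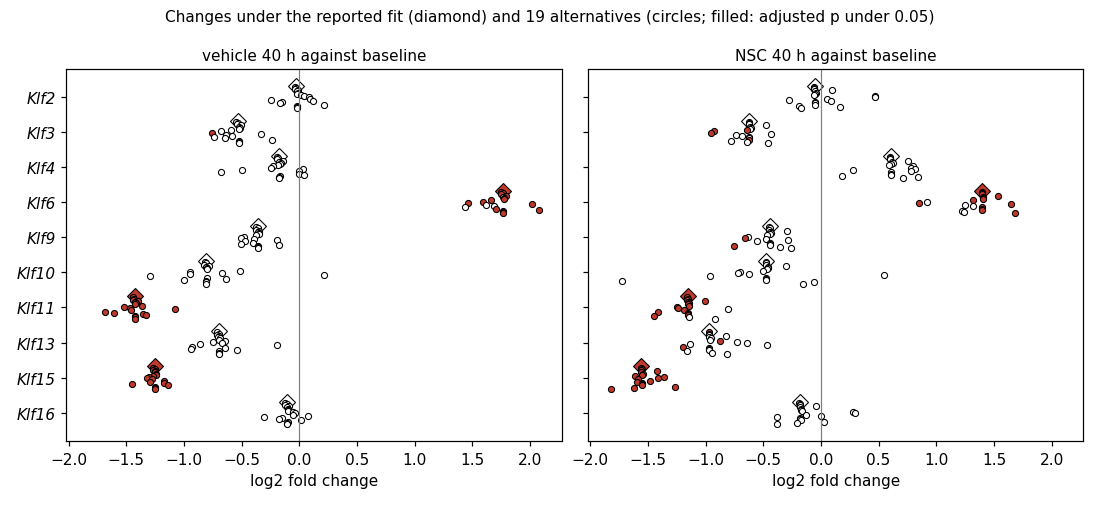
Each diamond is the reported log2 fold change of a member and each circle its value under one of 19 alternative fits, filled where the adjusted p was under 0.05. *Klf15* stays filled and below 0 throughout, *Klf6* stays above 0 but loses its fill under some alternatives, and *Klf2* and *Klf10* lie on both sides of 0.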

How the data were processed

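Whole liver RNA was sequenced from 9 libraries, 3 per group (stranded mRNA libraries per the labels). The authors aligned reads with STAR 2.6.1, assigned them to genes with Subread 1.5.1 featureCounts and deposited raw counts per gene. The deposited FPKM values are those counts divided by the library total and gene length plus 1 base (largest relative difference on recomputing, 4.96e-10). The submitters' processing notes name a human build, but identifiers and coordinates are mouse: all 10 members lay on the same chromosome in GENCODE M21 (GRCm38), 4 at identical positions and the others within 2950 bases.

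Groups came from the sample labels. Genes passing filterByExpr (15024) entered 1 edgeR 4.0.16 quasi-likelihood fit (R 4.3.3, TMM, robust, group as the only term), with Benjamini-Hochberg adjustment over all tested genes in each of 3 comparisons. Called means an adjusted p under 0.05. The SE is the absolute log2 fold change divided by the square root of F. The fit was checked on simulated counts. Whether the livers of a group are separate mice is not stated in the labels, but the study calls them biological replicates, 3 per group. The p-values measure the spread between those replicates. Intervals are 95%. Likeness is the root mean square difference of log2 CPM (prior count 2), each gene centred on its mean over 9 libraries, and the 2 nearest tested non-members were taken for each called member. In context lists, up to 3 genes with the smallest adjusted p in a comparison were named. Counts in these lists stand against the shares of all tested genes, 12.7% higher and 11% lower with vehicle, and 18.2% and 16.5% with NSC. Enzymes linked to KLF15 were also placed by their likeness to *Klf15*, chosen after the values were seen. Members, lists and promoter motifs were chosen with earlier results of these data known. Alternatives were DESeq2 1.42.0, edgeR's exact test, other scaling and filters, a replicate block, GC correction (loess, span 0.5), stricter thresholds and leaving out each library. Correlations of the deviations of same-numbered libraries ran from -0.0479 to 0.134 over 9 pairs. Only that of vehicle replicate 1 with NSC replicate 1 was over 0.1, so numbers were not treated as pairs. After the data were seen, context lists were also counted without baseline replicate 2 and without NSC replicate 1. Of the listed markers, *Tf* and *Adgre1* were not analysed here.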

Additional observations from a re-analysis of the deposited data

How the results depend on the processing

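*Klf15* was called in both comparisons with baseline under all 19 alternative fits, with log2 fold changes of -1.45 to -1.14 with vehicle and -1.82 to -1.27 with NSC (adjusted p at most 0.0422), and *Klf11* with vehicle under all 19 (-1.68 to -1.08). *Klf6* kept its direction (1.44 to 2.08, and 0.85 to 1.69) but lost its call in 4 alternatives with vehicle and in 7 with NSC. Testing all genes with at least 1 count ended both calls (adjusted p = 0.0652 and 0.103). Of the 10 members, 1 was called in each comparison with baseline when an absolute log2 fold change over 1.5 was added, and 1 at an adjusted p under 0.01. Leaving out 1 library gave 2 to 3 calls with vehicle and 1 to 4 with NSC, the lowest being without NSC replicate 2 (*Klf15* alone). No member was called in NSC against vehicle under any alternative. All-gene calls in that comparison went from 6 to 758 with DESeq2, 461 with the exact test, 221 with all genes, 11 with the block, 1 with library size scaling or with GC correction and the block, 0 with GC correction, and 0 to 994 on leaving out a library, the highest without NSC replicate 1. With vehicle, 3564 calls became 2285 without baseline replicate 3. Scaling by total counts moved the median of all genes by up to 0.15. The cause was not tested.

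The replicate block gave 5 calls with NSC (*Klf3*, *Klf6*, *Klf11*, *Klf13*, *Klf15*), also 5 with GC correction (*Klf9* in place of *Klf13*), and 3 and 4 with vehicle, the fourth being *Klf3* (adjusted p = 0.0295). *Klf3* with NSC had an adjusted p of 0.0268 with the block and 0.0108 with both. In 7 of 9 comparisons of libraries, a library correlated best with its own number among the 3 of the other group, a hint from the data and not from the labels. The NSC remnants came from differently treated mice than the baseline livers and the vehicle remnants. Comparisons of NSC remnants with either group therefore cannot pair samples of one mouse, and own numbers matched best in some of these too.

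Signs turned for members that were not called. With vehicle, *Klf2* was at 0.014 with the block, 0.040 with GC correction and 0.085 with both. With NSC, *Klf2* was at 0.092 with library size scaling, 0.46 with GC correction and 0.47 with the block added, and *Klf16* at 0.27 and 0.30 under the last 2. In NSC against vehicle, library size scaling gave 0.10 for *Klf2*, 0.030 for *Klf3*, 0.055 for *Klf9* and 0.051 for *Klf16*; GC correction gave 0.42 for *Klf2*, 0.020 for *Klf13* and 0.33 for *Klf16*; and with the block added 0.38, 0.029 and 0.33, and -0.053 for *Klf10*. Leaving out 1 library gave ranges across 0 with vehicle for *Klf2* (-0.25 to 0.21), *Klf4* (-0.68 to 0.038), *Klf10* (-1.29 to 0.21) and *Klf16* (-0.31 to 0.073), with NSC for *Klf2* (-0.28 to 0.17), *Klf10* (-1.73 to 0.55) and *Klf16* (-0.38 to 0.028), and in NSC against vehicle for *Klf2* (-0.27 to 0.19), *Klf3* (-0.38 to 0.12), *Klf9* (-0.40 to 0.092), *Klf10* (-0.92 to 0.74), *Klf11* (-0.021 to 0.50) and *Klf16* (-0.28 to 0.13).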

Other observations

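Markers of other cell types were measured in the same livers. Among all tested genes, 12.7% rose and 11% fell with vehicle, and 18.2% rose and 16.5% fell with NSC. Of 5 tested cholangiocyte markers, 4 rose with vehicle and 3 with NSC. Of 6 neutrophil markers, 2 rose with vehicle and 4 with NSC, and of 9 macrophage markers, 2 and 5. Of 4 lymphocyte markers, 2 fell with vehicle and 1 with NSC, and of 9 hepatocyte markers, 1 rose in each comparison while 2 and 3 fell. Of 10 sinusoidal endothelial markers 2 fell with vehicle and 1 with NSC, and of 3 tested erythroid markers 1 fell in each. Without baseline replicate 2, 1 neutrophil and 1 macrophage marker rose with vehicle, and 1 cholangiocyte marker rose with NSC. Lymphocyte markers that fell then numbered 3 with vehicle and 2 with NSC. Without NSC replicate 1, 4 sinusoidal endothelial markers fell with NSC (median log2 fold change -0.24, against 0.02 with it). In that setting 4 macrophage, 3 neutrophil and 2 cholangiocyte markers rose with NSC.

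Across the 9 livers, the nearest transcripts to *Klf11* were C730034F03Rik and RP23-444I6.3, with root mean square differences of 0.259 and 0.276 against a median of 0.799 over all tested genes. C730034F03Rik had 6 to 30 counts a library and was not called, whereas RP23-444I6.3 fell with vehicle (log2 fold change -0.99, SE 0.33, adjusted p = 0.0469) and with NSC (-0.996, SE 0.33, adjusted p = 0.035).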
